A study of Rattus norvegicus with 27 samples.

Results

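The genes of the ion channels that carry potassium, calcium, sodium and pacemaker currents were followed in the hearts of rats that had breathed ambient particles. They were chosen by symbol: every probe whose gene symbol began with Kcn, Cacn or Hcn followed by a letter or digit, or read Scn, digits and a or b. This gave 116 probes for 113 genes, of 22226 probes in the table, which name 12978 genes. The choice takes in families that voltage does not gate, such as the inward rectifiers, the two-pore potassium channels and the small-conductance calcium-activated channels, so the set is one of cardiac ion channel families and not of voltage-gated channels alone. Total RNA of the heart was measured on Illumina bead arrays in male Fisher 344 rats, 4 weeks old at the start, after 3 months of exposure. The control group breathed filtered air (7 arrays), and the others coarse particles (6 arrays), fine particles (6 arrays) or ultrafine particles (8 arrays). All groups shared strain, sex, starting age and duration, and the rats carried no transgene or disease model that the labels name. Each array was taken as 1 rat, which the labels do not state in so many words, so the p-values measure the spread between these arrays.

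Each heartbeat is shaped by these proteins. Sodium channels start the action potential of a heart muscle cell, L-type calcium channels sustain it and trigger contraction, and several potassium channels end it. In the rat ventricle, the earliest repolarizing current is the transient outward current, carried by pores of the Kcnd family together with the cytosolic subunit made by Kcnip2. Channels of the Hcn family carry the inward pacemaker current, and the inward rectifiers set the resting potential or couple it to cell metabolism. In bulk RNA of a whole heart, fewer cells of a type and less RNA per cell cannot be told apart.

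Most of the channel probes were dim. The deposited levels were taken to be on a log2 scale. Of the 116 probes, 69 had a mean below 5.8 over the 27 arrays, near the background of this table, where all values lay between 5.26 and 6.08. A further 20 had a mean from 5.8 to 6, 19 a mean from 6 to 7, and 8 a mean of 7 or more. The authors' count of 11657 retained probes was matched here by keeping the brightest, and 48 channel probes for 47 genes passed. The members just inside this limit were Kcnc2 at a mean of 5.79 and the 2 probes of Kcna10 at 5.81 and 5.84, and those just outside were Kcnj2, Kcna3 and Kcnmb1, each at 5.79. There were 3 genes with 2 probes each, and these disagreed for Kcnh8, with a mean of 6.35 on one probe and 5.49 on the other.

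By role, 5 of 8 probes for the transient outward current passed the limit, 14 of 37 for delayed rectifiers and their accessory subunits, 8 of 14 for inward rectifiers, 5 of 10 for two-pore channels and 5 of 9 for calcium-activated channels. Among calcium channel genes, 1 of 5 alpha1 pores, 2 of 4 alpha2delta, 2 of 4 beta and 0 of 7 gamma subunits passed. Of the sodium channel genes, 2 of 8 pores and 1 of 2 beta subunits passed, and of the pacemaker genes only Hcn2 of 3. The last 5 probes fell in no role list, and 2 of them passed. The 8 probes with a mean of 7 or more were those of Kcnip2 (9.90), Cacna2d1 (9.57), Kcnk2 (7.86), Kcnj11 (7.44), Kcnq1 (7.32), Kcnk3 (7.26), Cacna1c (7.22) and Kcnj5 (7.17). Probes differ in how strongly they bind, so these means say how far a probe stood above background and do not rank the genes by transcript number.

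**Figure D1:**
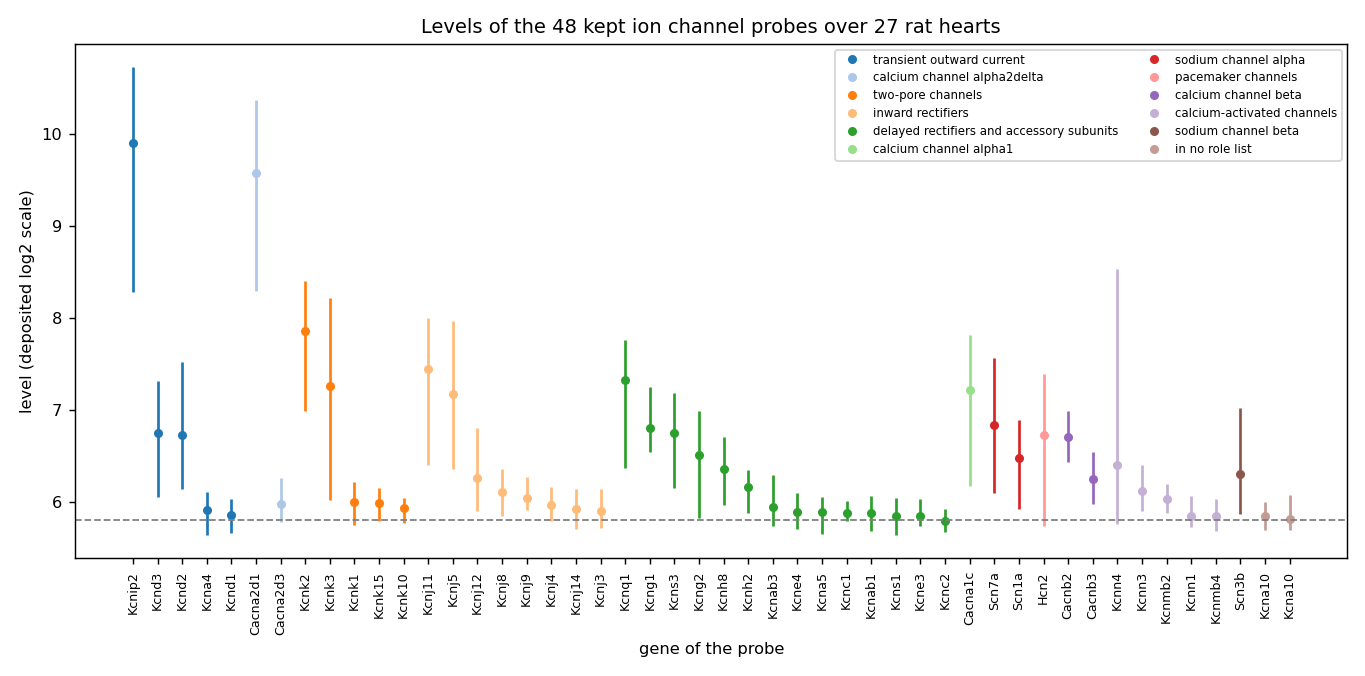
Level on the deposited log2 scale (y axis) of the 48 channel probes that passed the brightness limit (x axis, grouped and coloured by role). Points are means and bars run from the lowest to the highest of the 27 arrays. The dashed line marks the level of 5.8. Only 8 probes had a mean of 7 or more, and Kcnn4 had a range from 5.76 to 8.53 around a mean of 6.40.

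Cell content differed between arrays, and this touches every comparison that follows. On filtered air 1, coarse 1, coarse 2, fine 2, ultrafine 2 and ultrafine 7 the mean of 15 measured lymphocyte markers exceeded the median over the 27 arrays by 15.2 to 37.3 times the median absolute deviation. The T cell receptor chain gene Cd3d stood between 9.57 and 12.16 there and between 5.87 and 7.89 on the other 21 arrays. Of the 15 markers, 9 were higher on each of these 6 arrays than on any other, and 8 had a median below 5.8 on the other 21. The 6 arrays were singled out by the mean of these same markers, so higher levels there follow in part from the choice. The mean of the lymphocyte markers ran from 5.90 to 8.06 in filtered air, from 5.93 to 8.93 with coarse, from 5.91 to 7.20 with fine and from 5.77 to 8.97 with ultrafine particles. The mean of 9 cardiomyocyte markers ran from 11.89 to 12.13 in filtered air, from 11.19 to 11.98 with coarse, from 11.94 to 12.22 with fine and from 10.94 to 12.14 with ultrafine particles, far above background on every array. Its lowest value was on ultrafine 8, whose median correlation with the other arrays was 0.913. The markers disagreed on that array. Myh6, Tnni3, Tnnt2, Myl3 (10.68) and Mybpc3 (7.99) were at their lowest of the 27 arrays and Myl2 was below its median. Actc1 was at its highest (7.43), Actn2 at its median (12.70) and Ldb3 above its median. The 6 arrays high in lymphocyte markers and ultrafine 8, 7 in all, were left out in a second fit, chosen after seeing the data, with 20 arrays (filtered air 6, coarse 4, fine 5, ultrafine 5). Among these 20 arrays the cardiomyocyte mean ran from 11.80 to 11.88 with coarse particles, below every array of filtered air (11.93 to 12.13) and of fine particles (11.94 to 12.22), and from 11.84 to 12.14 with ultrafine particles. The part of cell content in the differences was not tested. Values without the 7 arrays are given beside many of them.

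No channel probe passed the test in any of the 7 tests on all 27 arrays, a moderated linear model of limma with Benjamini-Hochberg adjustment over the 11657 probes and a threshold of 0.05. Among all probes, 0.00858% were called in coarse particles against filtered air, 0% in fine and 0.0686% in ultrafine particles against filtered air. Between particle sizes, 0.0257% of all probes were called for coarse against fine, 0% for coarse against ultrafine and 0.197% for fine against ultrafine particles. For any difference among the 4 groups 0.0944% were called. At an unadjusted p under 0.05 the channel probes numbered 4 of 48 for coarse particles against filtered air (8.33%, beside 4.07% of all probes), 4 for fine (beside 5.98%) and 4 for ultrafine particles (beside 5.28%). They numbered 9 for coarse against fine particles (18.8%, beside 6.58% of all probes), 4 for coarse against ultrafine (beside 2.56%) and 8 for fine against ultrafine (16.7%, beside 12.1%). For any difference among the groups they numbered 9 (beside 6.92%). At the authors' looser rule, in which the fold exceeds 1.5 and the adjusted p lies under 0.25, 3 members (Hcn2, Kcnip2 and Kcnj11) counted between fine and ultrafine particles, beside 0.575% of all probes. Without the 7 arrays, or without all 10 that stood apart, 0 members met that rule. The values that follow are therefore differences that did not pass, unless a sentence says otherwise.

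The median difference of the 48 channel probes was close to that of all probes in each comparison. On the log2 scale it was -0.02 in coarse particles against filtered air, 0.03 in fine and -0.01 in ultrafine. It was -0.04 for coarse against fine, -0.01 for coarse against ultrafine and 0.04 for fine against ultrafine particles, while the median of all probes stayed within 0.01 of 0 in each. In all 27 arrays the members with a lower mean numbered 32 of 48 for coarse particles against filtered air (beside 51.6% of all probes), 21 for fine (49.2%) and 29 for ultrafine particles (48.3%). They numbered 33 of 48 for coarse against fine particles (52.7%), 25 for coarse against ultrafine (54.2%) and 16 for fine against ultrafine particles (49.4%). In the 20 arrays these counts were nearer an even split. They were 26 (beside 48.6% of all probes), 22 (48.5%) and 26 (50.8%) against filtered air, and 25 (51.2%), 26 (47.3%) and 23 (48.5%) between particle sizes, in the same order. The 15 members among the brighter 5828 probes had medians of -0.20, 0.09 and -0.17 for coarse, fine and ultrafine particles against filtered air. Their medians were -0.37 in coarse against fine, -0.03 in coarse against ultrafine and 0.23 in fine against ultrafine particles, while the median of the 5828 probes stayed within 0.02 of 0. In the 20 arrays the 6 medians were -0.07, 0.04, 0.04, -0.19, -0.01 and -0.001, so only that of coarse against fine particles stayed beyond 0.1.

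The groups did not overlap for few members. This held for Kcnd3 in coarse particles against filtered air, where 0.283% of all probes had groups that did not overlap. It held for Kcnip2 in coarse against fine particles, beside 0.961% of all probes. It held for Hcn2 and Kcnip2 in fine against ultrafine particles, beside 0.6% of all probes. In the other 3 comparisons every member's groups overlapped, beside 0.652% of all probes without overlap for fine and 0.12% for ultrafine particles against filtered air and 0.0343% for coarse against ultrafine particles.

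The genes of the transient outward current shared a direction in most comparisons with filtered air. All 5 that passed the brightness limit, Kcnip2, Kcnd2, Kcnd3, Kcna4 and Kcnd1, had a lower mean with coarse and with ultrafine particles than with filtered air. Of all probes, 51.6% and 48.3% had a lower mean in these comparisons. The coarse differences of Kcna4 and Kcnd1, which stood close to background, were only -0.03 and -0.01. With fine particles 4 of the 5 had a lower mean, all but Kcnip2 (beside 49.2% of all probes). These comparisons share the filtered air arrays, so they are not independent of each other. The median of the 5 differences from filtered air was -0.42 for coarse, -0.22 for ultrafine and -0.06 for fine particles, and 0 of 5 passed in each. With the 7 arrays left out, all 5 stayed lower with ultrafine particles, while with coarse particles Kcnd1 (0.04) and Kcna4 (0.002) stood slightly higher. The promoters of the 3 members with the widest differences are shown because they stood lower together, from 250 bases before to 50 after the start site in RefSeq on GRCr8, 5′ to 3′ on the gene's own strand, with GC boxes (GGGCGG, on either strand) in capitals. They are Kcnip2 at chr1:254613849-254614148 on the minus strand, Kcnd2 at chr4:50742235-50742534 on the plus strand and Kcnd3 at chr2:195626066-195626365 on the plus strand.
Kcnip2: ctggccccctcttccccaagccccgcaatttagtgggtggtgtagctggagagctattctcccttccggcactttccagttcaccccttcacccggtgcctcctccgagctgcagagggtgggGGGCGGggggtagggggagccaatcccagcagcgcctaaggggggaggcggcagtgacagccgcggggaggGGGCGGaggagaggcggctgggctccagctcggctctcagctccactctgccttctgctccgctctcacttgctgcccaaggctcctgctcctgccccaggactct
Kcnd2: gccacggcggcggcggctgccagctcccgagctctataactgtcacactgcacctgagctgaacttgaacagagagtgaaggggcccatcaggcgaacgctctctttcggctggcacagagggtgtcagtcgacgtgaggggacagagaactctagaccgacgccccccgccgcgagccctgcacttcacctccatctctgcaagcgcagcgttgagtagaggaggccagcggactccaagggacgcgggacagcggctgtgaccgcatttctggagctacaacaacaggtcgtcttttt
Kcnd3: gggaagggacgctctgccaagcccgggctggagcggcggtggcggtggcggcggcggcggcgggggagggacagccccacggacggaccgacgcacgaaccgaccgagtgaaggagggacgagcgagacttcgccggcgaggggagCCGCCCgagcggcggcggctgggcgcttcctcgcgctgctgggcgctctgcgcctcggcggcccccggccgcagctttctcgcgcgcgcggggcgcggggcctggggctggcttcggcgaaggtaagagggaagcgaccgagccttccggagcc

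The windows of these genes differ in their letters. Kcnip2 held 2 GC boxes and 1 CCAAT, Kcnd3 held 1 GC box and Kcnd2 held none, and TATAAA was in none of the 3, with both strands searched for each motif. Of the 33469 promoter windows of the table, 33.06% held GGGCGG, 14.22% TATAAA and 37.49% CCAAT on either strand. The GC content was 67.7% for Kcnip2, 61.7% for Kcnd2 and 77.7% for Kcnd3, against a median of 51.7% over all windows, with quartiles of 44.7% and 60.3%. A window was in the table for 32 of the 47 genes that passed the limit. A match of letters is not a binding site, and no value here links the windows to the levels.

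Kcnip2 codes for the calcium-binding subunit that brings Kcnd pores to the cell surface and speeds their recovery. Its level ran from 9.90 to 10.46 in filtered air (median 10.14), from 8.67 to 9.95 with coarse (median 9.81), from 10.02 to 10.72 with fine (median 10.25) and from 8.28 to 9.99 with ultrafine particles (median 9.76). The fine group lay above both the coarse and the ultrafine group with no overlap, while both of these overlapped filtered air at its lowest array, filtered air 1. Against filtered air the mean was 0.53 lower with coarse particles (log2 scale, SE 0.23, adjusted p = 0.985), below the filtered air mean on 6 of 6 arrays. It was 0.60 lower with ultrafine particles (SE 0.21, adjusted p = 0.750), on 8 of 8 arrays, and 0.19 higher with fine particles (SE 0.23, adjusted p = 0.974), on 4 of 6 arrays. Against fine particles it was 0.72 lower with coarse (SE 0.23, adjusted p = 0.736), and the mean with fine was 0.78 above that with ultrafine particles (SE 0.22, adjusted p = 0.125), a fold of 1.72.

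The lowest Kcnip2 levels fell on arrays high in lymphocyte markers: 8.28 on ultrafine 7, 8.67 on coarse 1 and 9.21 on ultrafine 2. The rest of the arrays high in these markers were not low alike. Kcnip2 read 9.90 on filtered air 1, 9.91 on coarse 2 and 10.65 on fine 2, the last close to the highest level of all arrays (10.72). Without coarse 1 the difference between coarse particles and filtered air was -0.34. With the 7 arrays left out, Kcnip2 read 9.55, 9.71, 9.94 and 9.95 on the 4 coarse arrays and 9.62, 9.73, 9.78, 9.86 and 9.97 on the 5 ultrafine arrays. It read from 10.02 to 10.46 on the 6 arrays of filtered air and 10.02, 10.15, 10.20, 10.30 and 10.72 on the 5 fine arrays. Coarse and ultrafine arrays then lay below every filtered air and every fine array. The cardiomyocyte marker mean was also lower on each of these coarse arrays than on every filtered air and fine array, and its part in the Kcnip2 difference was not tested. For the ultrafine arrays that mean overlapped both groups. In the 20 arrays the difference from filtered air was -0.41 for coarse (SE 0.12, adjusted p = 0.193) and -0.40 for ultrafine particles (SE 0.11, adjusted p = 0.136). Between fine and ultrafine particles Kcnip2 differed by 0.49 and passed (SE 0.12, adjusted p = 0.0443), where 1.11% of all probes were called. Over single arrays left out its adjusted p ran from 0.0601 to 0.328, and over the other alternatives from 0.0133 to 0.380. In the 20 arrays, a set chosen after seeing the data, Kcnip2 was also the 1 member that passed the test for any difference among the groups (adjusted p = 0.0401). There 0.832% of all probes were called. In this test its adjusted p was 0.313 in all arrays and 0.156 without all 10 that stood apart. Without those 10 no member passed between fine and ultrafine particles either, where the lowest adjusted p was 0.067.

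**Figure D2:**
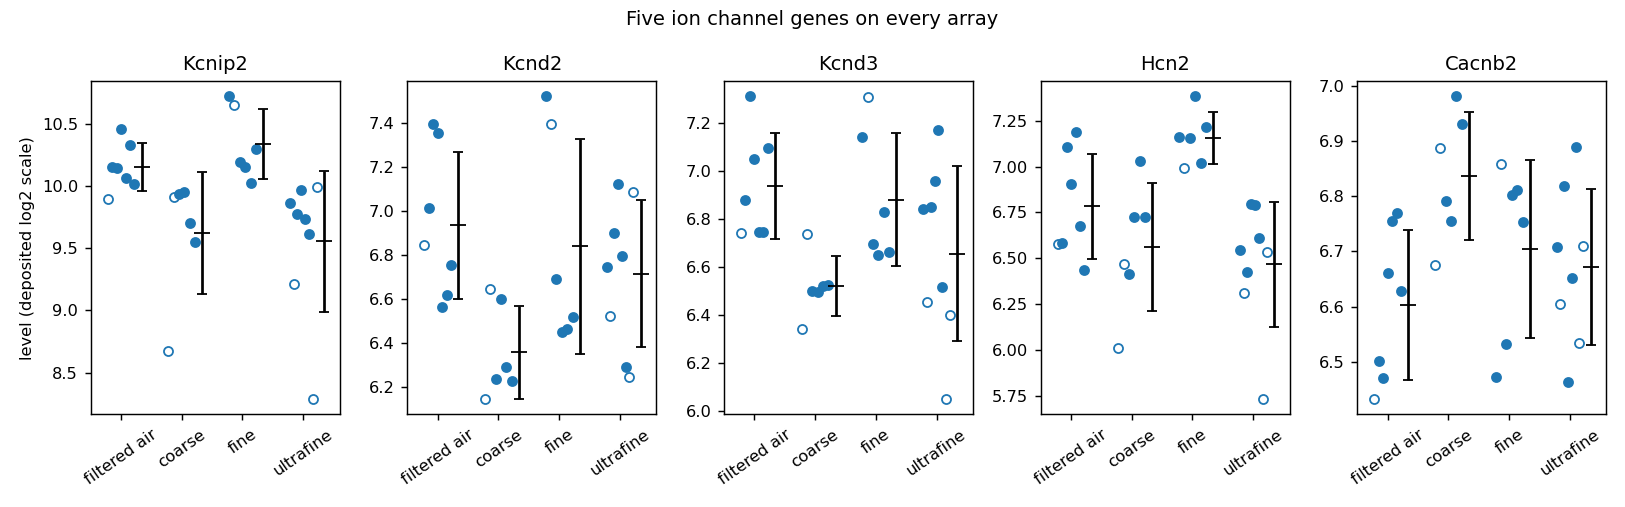
Level on the deposited log2 scale (y axis) of 5 channel genes on each of the 27 arrays, by exposure group (x axis). Each point is 1 array, open points are the 7 arrays left out of the second fit, and the bars give the group mean and its SD. For Kcnip2 and Hcn2 every fine array lies above every ultrafine array, and for Kcnd3 every coarse array lies below every filtered air array by a narrow margin. Each panel has its own y range.

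Kcnd2, which codes for a pore of the fast transient outward current, ran from 6.56 to 7.40 in filtered air (median 6.84) and from 6.14 to 6.64 with coarse particles (median 6.26). Its range was 6.45 to 7.52 with fine (median 6.60) and 6.24 to 7.12 with ultrafine particles (median 6.77). The coarse group was the lowest, and 2 of its arrays, coarse 2 and coarse 4, reached into the range of filtered air. The mean with coarse particles was 0.58 below filtered air (SE 0.19, adjusted p = 0.856), a fold of 1.49, on 6 of 6 arrays, and -0.61 in the 20 arrays (adjusted p = 0.290). It was 0.10 lower with fine (SE 0.19) and 0.22 lower with ultrafine particles (SE 0.18), and without filtered air 3 the latter was -0.15. The fine difference ran from -0.23 without fine 1 to -0.02 without fine 4, and was -0.22 in the 20 arrays. The highest levels, 7.40 on filtered air 3, 7.36 on filtered air 4, 7.52 on fine 1 and 7.40 on fine 2, made the spread of those groups wider than that of the coarse group, with SDs of 0.34, 0.49 and 0.21.

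Kcnd3, the other main pore of this current, ran from 6.74 to 7.31 in filtered air (median 6.88) and from 6.34 to 6.74 with coarse particles (median 6.51). The groups did not overlap, though the highest coarse array and the lowest filtered air array differed only in the third decimal. The mean with coarse particles was 0.42 lower (SE 0.15, adjusted p = 0.920), on 6 of 6 arrays. With fine particles Kcnd3 ran from 6.65 to 7.31 (median 6.76, difference from filtered air -0.06), and with ultrafine particles from 6.05 to 7.17 (median 6.68, difference -0.28, SE 0.14). Among the 20 arrays the 4 coarse ones read 6.5, 6.5, 6.52 and 6.53, below every filtered air array, and the difference was -0.46 (SE 0.12, adjusted p = 0.122). The cardiomyocyte marker mean was lower on the same 4 arrays, as given for Kcnip2, and its part was not tested. The ultrafine difference from filtered air was -0.10 in the same set, without ultrafine 2, 7 and 8, which held the 3 lowest ultrafine levels. With weights for array quality, Kcnd3 (adjusted p = 0.0251) and Kcnd2 (adjusted p = 0.0477) passed for coarse particles against filtered air. Over the other alternatives apart from single arrays left out, their adjusted p reached 0.992 and 0.966. The share of all probes called with array weights in that comparison is not given here. Between fine and ultrafine particles array weights called many more of all probes than the main fit did.

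The slow component of the current and the third Kcnd pore stood close to background. Kcna4 ran from 5.8 to 6.10 in filtered air (median 6.03), from 5.82 to 6.05 with coarse, from 5.64 to 5.99 with fine (median 5.8) and from 5.72 to 6.09 with ultrafine particles. Its widest difference was that of fine particles from filtered air, 0.16 lower (SE 0.07, adjusted p = 0.824), and 0.13 lower in the 20 arrays. Kcnd1 ran from 5.66 to 6.03 over all arrays, and its differences from filtered air were -0.01, -0.04 and -0.10 for coarse, fine and ultrafine particles.

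Hcn2 codes for a pacemaker channel, and its level separated the fine from the ultrafine arrays. Its promoter in the same RefSeq table, chr7:10639408-10639707 on the minus strand, is shown for comparison with those above, and held 3 GC boxes at a GC content of 72.7%. The other motifs searched were not in it.
Hcn2: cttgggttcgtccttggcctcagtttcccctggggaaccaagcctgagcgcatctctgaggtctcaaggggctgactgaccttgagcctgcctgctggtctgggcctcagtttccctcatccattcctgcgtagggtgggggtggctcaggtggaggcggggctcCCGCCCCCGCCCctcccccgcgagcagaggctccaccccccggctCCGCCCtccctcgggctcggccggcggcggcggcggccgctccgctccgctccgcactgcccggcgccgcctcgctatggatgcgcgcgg

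Hcn2 ran from 6.44 to 7.19 in filtered air (median 6.68), from 6.01 to 7.03 with coarse (median 6.60), from 6.99 to 7.38 with fine (median 7.16) and from 5.73 to 6.80 with ultrafine particles (median 6.54). All 6 fine arrays lay above all 8 ultrafine arrays, all 6 also lay above 5 of the 7 filtered air arrays, and the fine group was the tightest, with an SD of 0.14. The mean with fine particles was 0.69 above that with ultrafine particles (SE 0.15), a fold of 1.61, with an adjusted p of 0.0657 that missed the threshold. It was 0.59 above that with coarse particles (SE 0.17, adjusted p = 0.630). Against filtered air it was 0.37 higher with fine (SE 0.16, adjusted p = 0.824), 0.22 lower with coarse (SE 0.16) and 0.31 lower with ultrafine particles (SE 0.15).

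The Hcn2 difference between fine and ultrafine particles also stood without the 7 arrays. There the fine group read 7.02, 7.16, 7.16, 7.22 and 7.38 and the ultrafine group 6.43, 6.54, 6.61, 6.79 and 6.80, again with no overlap. The difference was 0.55 (SE 0.13) and passed (adjusted p = 0.0438) in this set, which was chosen after seeing the data. There 1.11% of all probes were called, beside 0.197% in all 27 arrays. The Hcn2 difference also passed after cyclic loess, with array weights, with the lymphocyte mean as a covariate and with the replicate number as a block, where the adjusted p was 0.0349, 0.00156, 0.00823 and 0.0313. Each of these fits also called more of all probes than the main fit did, with the counts given in the closing section. Hcn2 did not pass in the other alternatives, where its adjusted p reached 0.189 in a fit of the 2 groups alone. Without all 10 arrays that stood apart no member passed in this comparison, and the lowest adjusted p was 0.067. With each array left out in turn it ran from 0.0231 to 0.162. Without coarse 1 the coarse difference from filtered air was -0.11, and without ultrafine 7 the ultrafine difference was -0.21. Neither Hcn4 nor the remaining pacemaker gene passed the brightness limit.

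**Figure D3:**
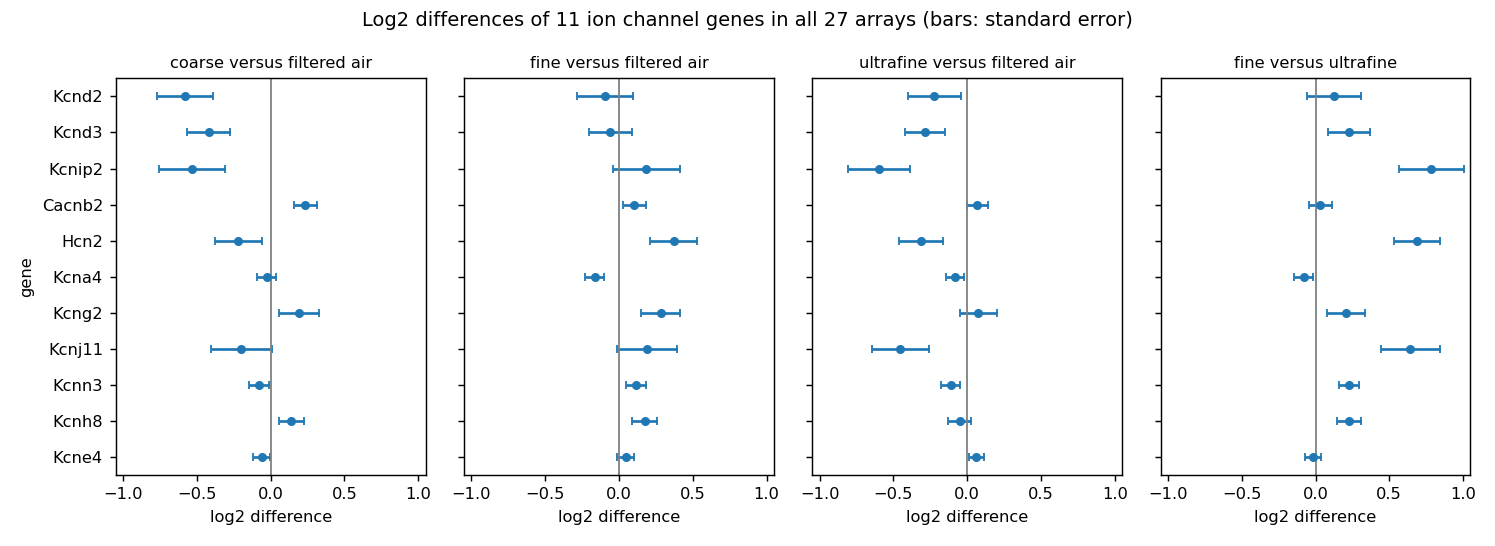
Log2 difference in all 27 arrays (x axis) of 11 channel genes (y axis) in 4 of the 6 comparisons, with bars of 1 standard error. Kcnd2, Kcnd3 and Kcnip2 lie to the left of 0 for coarse particles against filtered air, and Hcn2, Kcnip2 and Kcnj11 to the right for fine against ultrafine particles, at 0.69, 0.78 and 0.64. No point passed the adjusted test.

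Among the inward rectifiers, 0 of 8 passed in any comparison. Kcnj11 codes for the pore of the channel that ATP closes and that links membrane potential to metabolism. It ran from 7.30 to 7.85 in filtered air (median 7.58), from 6.39 to 7.83 with coarse (median 7.54), from 7.43 to 7.99 with fine (median 7.83) and from 6.46 to 7.62 with ultrafine particles (median 7.35). Groups overlapped in every comparison. The mean with fine particles was 0.64 above ultrafine (SE 0.20, adjusted p = 0.166), and that with ultrafine particles was 0.45 below filtered air (SE 0.19, adjusted p = 0.865). The low end of the ultrafine group was ultrafine 8 (6.46), ultrafine 7 (6.5) and ultrafine 2 (6.82), all left out of the 20 arrays, where the 2 differences were 0.39 (adjusted p = 0.0708) and -0.18. The coarse difference from filtered air was -0.20 in all arrays, -0.002 without coarse 1 and 0.03 in the 20 arrays. Abcc8 and Abcc9, which code for regulatory subunits of the same channel, differed by 0.48 (adjusted p = 0.215) and -0.12 (adjusted p = 0.865) between fine and ultrafine particles, and by -0.25 and -0.62 (adjusted p = 0.985 and 0.981) between coarse particles and filtered air. Without the 7 arrays the former were 0.24 and -0.39, and the latter -0.15 and -0.55. Kcnj5, a pore of the atrial channel that acetylcholine opens, differed from filtered air by 0.07, -0.05 and 0.10 with coarse, fine and ultrafine particles (SEs 0.20, 0.20 and 0.19), and by 0.27, -0.06 and 0.20 in the 20 arrays.

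Of the 14 delayed rectifier and accessory probes, 10 had a lower mean with coarse particles than with filtered air, 3 with fine and 7 with ultrafine particles, and 13 a lower mean with coarse than with fine particles. In the 20 arrays these counts were 7, 3, 5 and 9. Kcnq1, the pore of the slow delayed rectifier, ran from 7.19 to 7.60 in filtered air (median 7.51), from 6.39 to 7.42 with coarse (median 7.26), from 7.37 to 7.76 with fine (median 7.58) and from 6.37 to 7.65 with ultrafine particles (median 7.29). The mean with fine particles was 0.44 above coarse (SE 0.17, adjusted p = 0.736) and 0.43 above ultrafine (SE 0.16, adjusted p = 0.241). Without the 7 arrays these were 0.29 (adjusted p = 0.190) and 0.28 (adjusted p = 0.0773). Kcng2, a silent subunit that modifies other delayed rectifiers, ran from 6.11 to 6.65 in filtered air and from 6.40 to 6.99 with fine particles, a mean 0.28 higher (SE 0.13, adjusted p = 0.829) on 6 of 6 arrays, and 0.29 higher in the 20 arrays. Kcnh8, of the ether-a-go-go family, ran from 6.34 to 6.66 with fine and from 5.97 to 6.48 with ultrafine particles, a difference of 0.22 (SE 0.08, adjusted p = 0.236), and of 0.18 in the 20 arrays. Its second probe lay below the limit, so this rests on 1 probe. Kcne4, an accessory subunit that damps Kcnq1 currents, ran from 5.73 to 5.92 with coarse and from 5.81 to 6.09 with ultrafine particles, 0.12 lower with coarse (SE 0.06, adjusted p = 0.999), and 0.13 lower in the 20 arrays.

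The two-pore channels set the background potassium leak. All 5 that passed the limit had a lower mean with ultrafine particles than with filtered air, by 0.32 for Kcnk2, 0.05 for Kcnk1, 0.03 for Kcnk3, 0.01 for Kcnk10 and 0.01 for Kcnk15, and 0 passed. Without the 7 arrays Kcnk3 stood 0.27 and Kcnk15 0.01 above filtered air, and the other 3 below. Kcnk2, opened by stretch, ran from 7.55 to 8.23 in filtered air (median 8.06), from 7.70 to 8.40 with fine (median 8.10) and from 7.09 to 7.96 with ultrafine particles (median 7.82). The difference between fine and ultrafine particles was 0.41 (SE 0.17, adjusted p = 0.306), and 0.32 in the 20 arrays (adjusted p = 0.0873), where these groups did not overlap. Kcnk3, closed by acid outside the cell, ran from 7.10 to 8.22 with fine and from 6.52 to 7.53 with coarse particles, a mean 0.55 lower with coarse (SE 0.25, adjusted p = 0.738), and 0.43 lower in the 20 arrays.

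Of the calcium-activated channels, Kcnn3, a small-conductance channel, ran from 6.13 to 6.40 with fine (median 6.25), from 5.90 to 6.29 with ultrafine (median 6.00), from 5.95 to 6.14 with coarse (median 6.07) and from 5.92 to 6.31 with filtered air (median 6.14). The mean with fine particles was 0.23 above ultrafine (SE 0.07, adjusted p = 0.147). Without ultrafine 5, the highest array of its group, the difference was 0.26 and passed (adjusted p = 0.0302). It was 0.14 without the 7 arrays (adjusted p = 0.466). Its adjusted p ran from 0.0302 to 0.343 over single arrays left out and from 0.0421 to 0.675 over the other alternatives.

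Among the calcium channel genes, Cacnb2 codes for the beta subunit that carries the L-type pore to the membrane and shapes its gating in heart muscle. It ran from 6.43 to 6.77 in filtered air (median 6.63), from 6.67 to 6.98 with coarse (median 6.84), from 6.47 to 6.86 with fine (median 6.78) and from 6.46 to 6.89 with ultrafine particles (median 6.68). The groups overlapped, with the whole coarse group above the mean of filtered air. The mean with coarse particles was 0.23 above filtered air (SE 0.08, adjusted p = 0.856), a fold of 1.18, and 0.23 in the 20 arrays (adjusted p = 0.371). It was 0.17 above ultrafine particles (SE 0.08, adjusted p = 0.999). The pore gene Cacna1c, the partner of Cacnb2 in the heart, differed from filtered air by -0.03, -0.01 and 0.05 with coarse, fine and ultrafine particles, with SEs from 0.19 to 0.21, and by 0.17, -0.02 and 0.15 in the 20 arrays.

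Cacna2d1, an extracellular subunit of the same channel, ran from 9.36 to 10.03 in filtered air, from 8.29 to 9.71 with coarse, from 9.64 to 10.15 with fine and from 8.45 to 10.37 with ultrafine particles. The mean with coarse particles was 0.59 below fine (SE 0.24, adjusted p = 0.736), and 0.32 below it in the 20 arrays (adjusted p = 0.508). Its relative Cacna2d3 stood near 6 and was 0.14 lower with fine than with ultrafine particles (SE 0.05, adjusted p = 0.241). The 7 gamma subunits all had means below 5.8. Cacng1, which belongs to the skeletal muscle channel, had its highest value, 5.89, on coarse 6. On that array the mean of 6 measured skeletal muscle markers was 7.93, with the fast troponin genes Tnnt3 at 8.65 and Tnni2 at 9.31, while it ran from 5.82 to 6.54 on the other arrays. Whether tissue of another muscle was present in that sample was not tested.

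Of the sodium channel genes, Scn7a, which codes for a channel that senses sodium rather than voltage, ran from 6.48 to 7.13 in filtered air (median 6.92), from 6.29 to 7.23 with coarse (median 6.73), from 6.54 to 6.88 with fine (median 6.70) and from 6.09 to 7.56 with ultrafine particles (median 7.01). It was 0.22 lower with fine than with ultrafine particles (SE 0.17, adjusted p = 0.642). Without the 7 arrays the groups did not overlap and the difference was -0.40 (SE 0.10, adjusted p = 0.0516). Scn3b, a beta subunit, was 0.21 lower with fine than with ultrafine particles (SE 0.14, adjusted p = 0.572), and Scn1a, a pore better known from neurons, 0.05 lower (SE 0.14, adjusted p = 0.926), and these were 0.26 and 0.20 lower in the 20 arrays. With array weights, Scn7a (adjusted p = 0.0169) and Scn3b (adjusted p = 0.0354) passed as lower with fine particles, and Hcn2, Kcnip2, Kcnj11 and Kcnn3 as higher. Array weights also called many more of all probes in that comparison than the main fit did.

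Of the members, 5 had groups that did not overlap between fine and ultrafine particles in the 20 arrays (Hcn2, Kcnip2, Scn7a, Kcnk2 and Kcnc1), beside 2.87% of all probes. Between coarse particles and filtered air there were 3 (Kcnip2, Kcnd3 and Kcnj9, beside 3.21%), between ultrafine particles and filtered air 1 (Kcnip2, beside 1.3%), and between coarse and fine particles 5 (Kcnip2, Kcnd3, Kcnj5, Scn1a and Scn3b, beside 4.77%). None did so between fine particles and filtered air (beside 1.81%) or between coarse and ultrafine particles (beside 2.31%). Apart from the fine and ultrafine comparison and the test among the 4 groups, 0 members passed in the 20 arrays, where 0.377%, 0% and 0.721% of all probes were called in the comparisons of coarse, fine and ultrafine particles with filtered air, 0.275% in coarse against fine and 0% in coarse against ultrafine particles. In the same order, an unadjusted p under 0.05 held for 8, 5, 3, 8 and 2 members, beside 9.21%, 12.2%, 9.32%, 10% and 7.58% of all probes. It held for 11 between fine and ultrafine particles, beside 12.9%, and for 12 in the test among the 4 groups, beside 12.4%.

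Kcnn4, a calcium-activated channel that lymphocytes use to sustain calcium entry, stood between 6.81 and 8.53 on the 6 arrays high in these markers and between 5.76 and 6.18 on the other 21, with no overlap and medians 1.88 apart. Its difference between coarse particles and filtered air was 0.43 (SE 0.44, adjusted p = 0.985), and 0.06 in the 20 arrays. Kcna3, the voltage-gated channel best known from T cells, stayed near background, between 5.74 and 5.95 on the 6 arrays and between 5.54 and 5.92 on the others. The other members whose levels did not overlap between the 6 arrays and the 21 were Cacnb3, with a median 0.23 higher on the 6, and Kcnj5 and Scn1a, with medians 0.60 and 0.40 lower. The share of all probes that separated these arrays was not counted, so this is not shown to be particular to the channel genes. Other marker lists moved on the same arrays: the mean of 3 atrial markers ran from 7.77 to 10.49 on the 6 (median 9.70) and from 8.97 to 10.89 on the 21 (median 10.47). Fibroblast medians were 9.14 and 9.68 and endothelial medians 6.51 and 6.90, and the part of these tissues in the Kcnj5 and Scn1a levels was not tested. The Kcnip2 median was 0.47 lower and that of Hcn2 0.40 lower on the 6 arrays, with overlap.

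**Figure D4:**
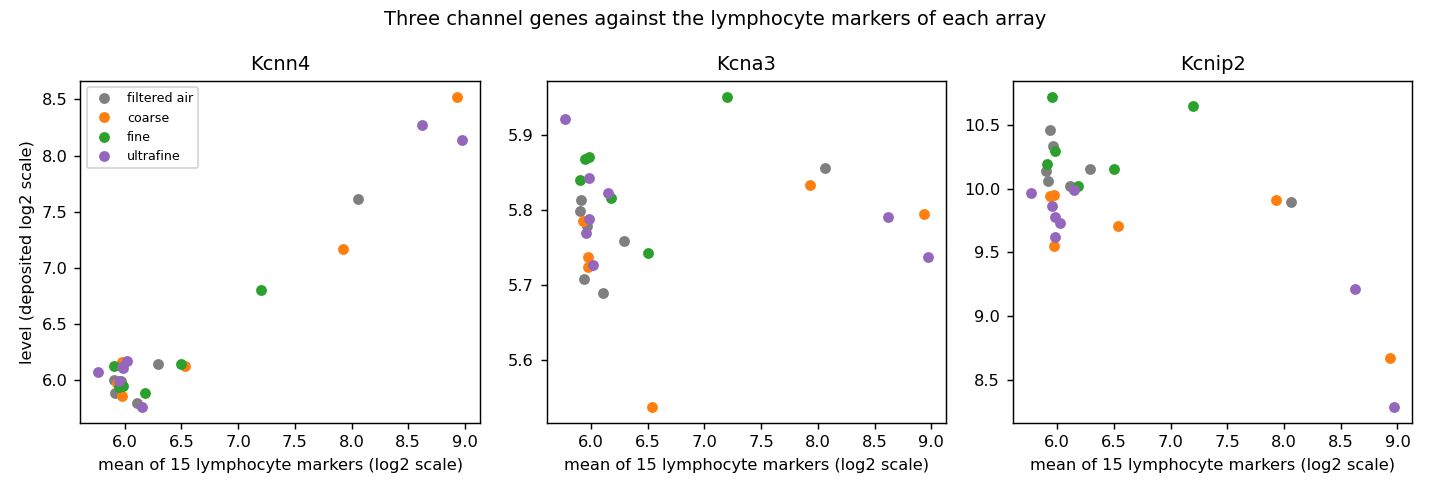
Level of Kcnn4, Kcna3 and Kcnip2 on the deposited log2 scale (y axis, a range of its own per panel) against the mean of the 15 lymphocyte markers (x axis, log2 scale), 1 point per array, coloured by exposure group. Kcnn4 lies between 6.81 and 8.53 on the 6 arrays with the highest marker means and at 6.18 or below on the rest. Kcna3 stays between 5.54 and 5.95, and the lowest Kcnip2 levels are those of ultrafine 7 and coarse 1.

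Single arrays held many of the extremes. Of the 48 members, 15 had their lowest value on ultrafine 7 and 11 on coarse 1, while 9 had their highest on ultrafine 8, 6 on fine 2 and 5 each on fine 1 and ultrafine 5. Ultrafine 7, coarse 1 and ultrafine 8 also had the lowest median correlations with the other arrays (0.903, 0.904 and 0.913). Extremes were not counted over all probes, so these counts are not shown to be particular to the channel genes. The 9 on ultrafine 8 included Kcnj5 (7.96), Cacna1c (7.82), Scn7a (7.56) and Scn3b (7.01), while Kcnj11 was at 6.46, near the bottom of its range. The SD of a member over the 27 arrays was smaller for dim than for bright probes. Its median was 0.09 for the 21 members with a mean below 6 and 0.40 for the 8 with a mean of 7 or more. Over all 48 members it was 0.13.

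Of 41 other genes of cardiac electrical function that were listed, such as gap junction proteins, channel regulators and transcription factors of the conduction system, 28 were measured and 27 passed the brightness limit. In all 27 arrays 0 of them passed in any of the 6 comparisons, beside the all-probe shares given above. At an unadjusted p under 0.05 they numbered 1, 0 and 2 for coarse, fine and ultrafine particles against filtered air (beside 4.07%, 5.98% and 5.28% of all probes). They numbered 2 for coarse against fine, 0 for coarse against ultrafine and 5 for fine against ultrafine particles (beside 6.58%, 2.56% and 12.1%). In the 20 arrays these counts were 4, 9, 4, 4, 2 and 8 in the same order, beside 9.21%, 12.2%, 9.32%, 10%, 7.58% and 12.9%. Irx5, a transcription factor that represses Kcnd2 in the mouse heart, differed from filtered air by -0.34 with coarse particles (SE 0.18, adjusted p = 0.985), and by -0.21 in the 20 arrays. Without the 7 arrays 1 gene passed, Cav3, which codes for the caveolin of muscle membranes. It was 0.32 lower with coarse than with fine particles (adjusted p = 0.0381), where 0.275% of all probes were called. It was 0.30 higher with fine than with ultrafine particles (adjusted p = 0.0190), where 1.11% were called.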

How the data were processed

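Rat heart RNA was measured on 27 Illumina bead arrays, each taken as 1 rat. The authors hybridised 32 arrays, removed 5 that hybridised poorly and preprocessed the rest with lumi 1.5.17, per the submitters' processing notes and the labels. The deposited values are taken as log2 levels. Whether a plain log2 or a variance stabilizing transform was used is not given in the sources used here, so differences at low levels may be compressed. All arrays held nearly the same set of values once sorted, with 0.0185 as the widest gap to filtered air 1. Detection p-values were not analysed here. Precision depends on how many arrays a group has.

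Channel probes were found by symbol, as listed in the probe annotation and updated by gene identifier, which changed 0 members' symbols. The 11657 probes with the highest mean were kept, the number the authors kept by detection. One limma 3.58.1 model (R 4.3.3) of 4 group means was fitted to them with lmFit and eBayes, two-sided, and a probe was called at a Benjamini-Hochberg adjusted p under 0.05. The fit was tested on simulated data. All 27 columns matched a sample.

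The members, role lists, marker lists, named genes and comparisons were chosen with earlier results of these data known. Named with full values are Kcnd2, Kcnd3, Kcnip2, Cacnb2 and Hcn2, members called in all arrays or without those that stood apart, and the 3 members with the smallest p in each comparison. Other members were free to be named with their mean and differences. The ranges of Kcnq1, Kcnk2, Kcnk3, Cacna2d1 and Scn7a, the choice of Irx5, Abcc8 and Abcc9 from the list of electrical genes, and single-array values were picked after their values were seen. An array stood apart where its lymphocyte marker mean exceeded the median by more than 3 times the median absolute deviation, or its median correlation lay below 0.9494 (1.5 interquartile ranges under the first quartile). That left 17 arrays. A stricter version at 10 deviations, leaving 20, was chosen after seeing the data. Other alternatives changed the filter, normalization, variance model, weights, covariates, block, groups fitted and call threshold, and left out each array in turn.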

Additional observations from a re-analysis of the deposited data

Results flagged for a closer look

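Values that stood far from the rest of their group were found in 6 of the 44 groups examined (11 named members in 4 groups), by a limit meant to mark about 1 in 20 by chance. Kcnip2 stood at 8.67 on coarse 1, with the next array of its group at 9.55, and at 8.28 on ultrafine 7, with the next at 9.21. Hcn2 stood at 5.73 on ultrafine 7, where the next array read 6.31, and Kcng2 at 5.82 on the same array, where the next also read 6.31. Both coarse 1 and ultrafine 7 were among the 6 arrays high in lymphocyte markers. Kcnn3 stood at 6.29 on ultrafine 5, above the next at 6.06, and Kcne4 at 6.05 on filtered air 4, above the next at 5.88.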

How the results depend on the processing

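In all 27 arrays the count of channel probes called was 0 in each of the 7 tests. For coarse particles against filtered air it was 2 with array weights (Kcnd2 and Kcnd3). For fine against ultrafine particles it was 1 after cyclic loess (Hcn2), 6 with array weights, 3 with the lymphocyte mean as a covariate (Hcn2, Kcnip2 and Kcnj11), 1 with the replicate number as a block (Hcn2) and 2 without the 7 arrays far apart (Hcn2 and Kcnip2). At a fold over 1.5 with an adjusted p under 0.25 it was 3 (Hcn2, Kcnip2 and Kcnj11), and 0 under the same rule without the 7 or the 10 arrays. With each array left out in turn it ran from 0 to 2, with 1 (Hcn2) without coarse 1, coarse 5, ultrafine 4 or ultrafine 8 and 2 (Hcn2 and Kcnn3) without ultrafine 5. For any difference among the groups it was 2 with array weights, 1 with the lymphocyte covariate, 1 with the replicate block and 1 without the 7 arrays (beside 0.832% of all probes). It stayed at 0 in every other alternative run, also without the 10 arrays that stood apart, and the causes were not tested. Over all probes the count called between fine and ultrafine particles was 23, and ran from 5 in a fit of the 2 groups alone to 815 with array weights, with 20 without a filter, 13 among the brighter probes, 50 after cyclic loess, 9 after centring on cardiomyocyte markers, 153 with the covariate and 51 with the block. Such counts for the other tests are not given here, apart from the shares in the 20 arrays. The members called with array weights in those tests therefore stand without that background. Of 37 same-numbered pairs of arrays from different groups, 23 had deviations that correlated above 0.1 (range -0.72 to 0.87, median 0.34, against 0.008 for pairs of other numbers). Not every pair passed 0.1, and 6 of 26 arrays correlated best with their own number, so the numbers were not taken as pairs, though they may mark something shared. Centring each array on its cardiomyocyte markers moved the median of all probes by 0.25 for coarse and 0.28 for ultrafine particles against filtered air, 0.29 for coarse against fine and -0.32 for fine against ultrafine particles. So centred, Kcnip2, Kcnd2 and Kcnd3 differed by -0.28, -0.33 and -0.16 for coarse and by -0.32, 0.06 and -0.003 for ultrafine particles against filtered air, and Hcn2 and Kcnip2 by 0.37 and 0.46 between fine and ultrafine particles. Subtracting the shift again returns the uncentred values by construction. Of 52 differences of the named members, 34 kept 1 sign under all alternatives. Dim probes limit what can be seen, since 69 of 116 lay near background.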
